A study of Mus musculus with 5 samples.

Results

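The growth cartilage chondrocytes of the embryonic mouse limb were picked out of droplet single-cell RNA-seq libraries by their own transcripts. A barcode with 100 to 9000 genes detected and at most 10% of its unique molecular identifiers (UMIs, 1 per captured transcript) from mitochondrial genes was kept as a cell. A kept limb cell was called a growth cartilage chondrocyte when *Col2a1* reached at least 1000 CPM (the usual depth-scaled count, at which 1000 CPM is 0.1% of the UMIs of the cell), when at least 1 UMI came from *Acan*, *Matn1*, *Matn3* or *Matn4*, and when no UMI came from *Col10a1*, *Ihh* or *Gdf5*. The members were thus chosen by their measured *Col2a1*, selector and exclusion UMIs. The rule found 1328 of 25865 kept forelimb cells (5.13%, exact 95% binomial interval 4.87 to 5.41) and 1510 of 23936 kept hindlimb cells (6.31%, 6.00 to 6.62), 2838 of 49801 limb cells in all. The intervals here and below cover counting error only.

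The series held 84440 barcodes in 5 libraries of mice labelled C57BL/6N, whereas the study methods name the J substrain. The libraries were 1 of forelimb and 1 of hindlimb from male embryos at embryonic day 15 by the labels (the methods are not uniform on the exact age), and 3 of penis from males at postnatal day 6. Each limb thus has 1 library. The methods give the number of embryos dissected in all but not per library, and the limbs may share embryos, so forelimb and hindlimb chondrocytes are compared without a test. Forelimb chondrocytes held 7079800 UMIs (median 4386.5 per cell) and hindlimb chondrocytes 9688461 (median 5364), against medians of 4771 and 5462 in the other kept limb cells. The limb libraries shared 203 barcode sequences.

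Limb bones are first laid down as cartilage. Its chondrocytes secrete a matrix of type II, IX and XI collagen fibrils filled with aggrecan, a proteoglycan that holds water through its sulfated sugar chains, and transcription of that matrix depends on SOX9 with SOX5 and SOX6. Toward the middle of the shaft the cells stop dividing and become prehypertrophic (*Ihh*) and hypertrophic (*Col10a1*), while cells at the ends form the joints (*Gdf5*), and cells with a UMI of these genes were left out by the rule.

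Because the rule used *Col2a1*, *Acan*, *Matn1*, *Matn3* and *Matn4*, differences between the chondrocytes and the other limb cells describe the set that was picked and were not tested. The cells nearest the *Col2a1* limit lay at 1003 to 1007 CPM inside it and 992 to 997 outside it in the forelimb, and at 1001 to 1019 inside and 991 to 999 outside in the hindlimb. The 10th percentile, median and 90th percentile of *Col2a1* over chondrocytes were 1494, 5588 and 16193 CPM in the forelimb and 1501, 5317 and 13634 in the hindlimb. *Acan* was seen in 83.6% and 86.0% of the cells, *Matn4* in 85.1% and 85.2%, *Matn1* in 46.0% and 54.5%, and *Matn3* in 42.4% and 45.5%. All 4 of these genes were seen together in 28.3% of forelimb and 33.8% of hindlimb chondrocytes.

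*Col2a1* RNA was also found in cells of other types, which bears on any share near the rule. Among cells with at least 2 of the immune markers *Ptprc*, *Cd68*, *C1qa* and *Lyz2*, 23.7% of forelimb and 25.3% of hindlimb cells held a *Col2a1* UMI, at medians of 6758.5 and 7471 UMIs per cell. Their summed *Col2a1* level was 159 and 84.4 CPM, and 15 and 6 of these cells passed the rule. The level was higher in cells with at least 2 epidermal markers, at 337 and 476 CPM (2.96% and 4.72% of them passing the rule), and in cells with at least 2 Schwann cell markers, at 394 and 481 CPM (2.21% and 3.13%). At least 2 endothelial markers were found in 25 and 22 chondrocytes, at least 2 muscle markers in 37 and 26, at least 2 epidermal markers in 11 and 20, and at least 2 red blood cell markers in 1251 and 1407. At least 2 genes of the joint list were found in 377 and 485 chondrocytes, of the tendon list in 33 and 43, and of the osteoblast list in 26 and 40. Cells with joint genes but no *Gdf5* UMI thus remain in the set. Red blood cell RNA was thus found in most chondrocytes, and the part of such RNA in the results below was not tested.

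For each gene, UMIs were summed over the chondrocytes and over the other kept cells of a library and divided by the summed UMIs of that set to give CPM. A gene was past the limit when the ratio was at least 2-fold in the same direction in both libraries, with at least 20 CPM in the higher set of each. Of 7329 genes that met the CPM minimum, 323 were higher in chondrocytes (4.41%) and 419 were lower (5.72%), and the median log2 ratio over all of them was 0.08 in the forelimb and 0.11 in the hindlimb.

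All 7 cartilage collagen genes were past the limit and higher, with a median log2 ratio of 5.08 in the forelimb and 4.95 in the hindlimb. *Col2a1*, on chromosome 15 (97975602 to 98004695, GRCm38), was the gene of the rule and stood at 7126 and 6701 CPM in chondrocytes against 183 and 201 CPM in other cells. *Col9a1*, a chain of the type IX collagen that coats the fibril, stood at 1608 and 1682 CPM against 42.0 and 54.5. *Col11a1*, a chain of the type XI collagen at the fibril core, was at 3893 and 4167 CPM against 229 and 272. *Col27a1*, a fibrillar collagen of the growth plate, had the smallest ratio of the list, 6.01-fold and 6.39-fold. The forelimb and hindlimb libraries did not separate on any collagen by 2-fold.

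Of the 11 proteoglycan and link protein genes, 9 were past the limit and higher and none were lower. The gene with the largest ratio of all genes tested was *Ucma* (chromosome 2, 4976122 to 4985748), a small secreted protein of immature chondrocytes, at 163 CPM in forelimb and 95.2 CPM in hindlimb chondrocytes against 1.77 and 1.15 CPM in other cells, a ratio of 92.3-fold and 82.6-fold. *Acan*, which encodes aggrecan and was used by the rule, was 34.0-fold and 33.5-fold higher. *Hapln1*, the link protein that fixes aggrecan to hyaluronan, was 20.3-fold and 19.2-fold higher. *Epyc* and *Chad*, both leucine-rich repeat proteins of cartilage matrix, were 34.7-fold and 29.7-fold and 36.2-fold and 38.1-fold higher. *Bgn* and *Sdc3* did not pass the limit.

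Of 14 matrilins and other cartilage matrix proteins, 12 met the CPM minimum, 10 were higher and 1 was lower. *Cytl1*, a secreted protein of chondrocytes, stood at 483 and 595 CPM against 6.87 and 12.3, a ratio of 70.3-fold and 48.5-fold. *Matn1* and *Matn3*, which the rule used, were 43.4-fold and 44.5-fold and 25.8-fold and 27.7-fold higher. *Cnmd*, the anti-angiogenic chondromodulin, was 35.6-fold and 31.4-fold higher. The lower gene was *Matn2*, a matrilin made widely outside cartilage, at 32.9 and 24.5 CPM in chondrocytes against 69.5 and 54.4. Outside the lists, *Susd5* (44.8-fold and 46.5-fold), *Fam180a* (49.5-fold and 40.7-fold) and *Ninj2* (33.3-fold and 30.7-fold) were among the 15 genes with the largest ratios, and the remaining 12 of the 15 belonged to the collagen, proteoglycan and matrilin lists. Of these, *Col2a1*, *Acan*, *Matn1* and *Matn3* were genes of the rule, which favours a high rank.

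**Figure D1:**
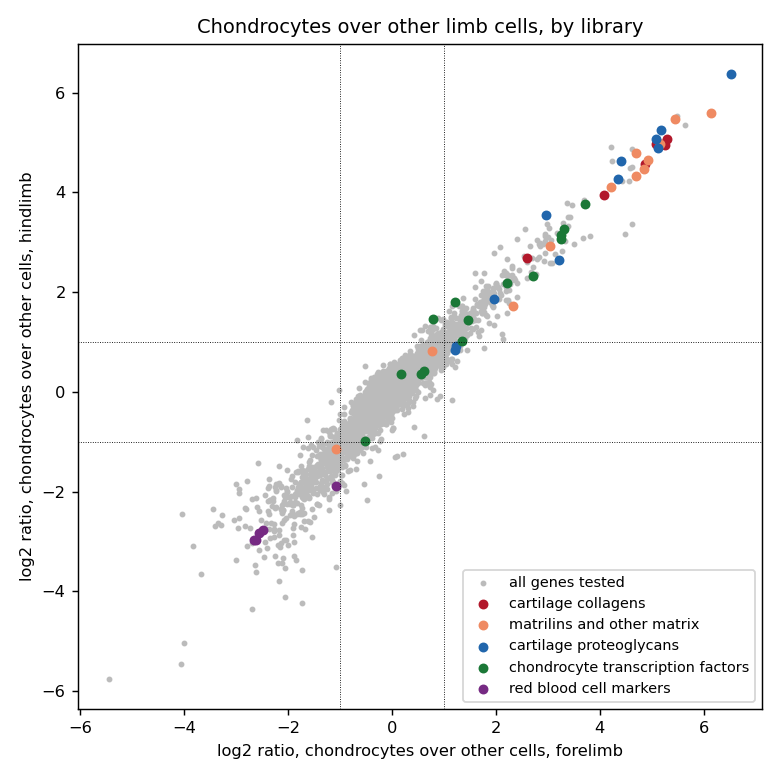
Each point is 1 of the 7329 genes that met the CPM minimum, placed by its log2 ratio of chondrocytes over other limb cells in the forelimb (horizontal axis) and the hindlimb (vertical axis), with dotted lines at 2-fold. All 7 collagens lie in the upper right and all 5 red blood cell markers in the lower left.

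The chondrocyte transcription factors had a median log2 ratio of 1.40 in the forelimb and 1.64 in the hindlimb, smaller than that of the collagens. Of 19 on the list, 14 met the minimum and 9 were past the limit, all higher. *Sox9* stood at 578 and 723 CPM against 60.5 and 86.4, a ratio of 9.55-fold and 8.37-fold. *Sox5* was 9.50-fold and 8.82-fold higher and *Sox6* 9.90-fold and 9.64-fold. *Wwp2*, a ubiquitin ligase whose locus also carries a cartilage microRNA, was 13.1-fold and 13.7-fold higher. *Runx2*, known for hypertrophy and bone, was 2.75-fold and 2.70-fold higher, at 98.7 and 113 CPM.

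The supply of sulfate and sugar chains for aggrecan was represented by 23 genes, of which 16 met the minimum and 8 were past the limit, all higher. *Papss2*, which makes the sulfate donor, was 10.8-fold and 11.3-fold higher. *Chst11*, a chondroitin sulfotransferase, was 7.08-fold and 7.76-fold higher, and *Slc26a2*, the sulfate transporter, 5.82-fold and 6.58-fold. Among 24 genes of procollagen folding and secretion, 5 were higher and 2 lower, so most of this list differed by less than the limit. *Plod2*, a collagen lysyl hydroxylase, was 3.63-fold and 3.99-fold higher, and *Adamts3*, a protease that trims procollagen II, 4.54-fold and 5.09-fold. *Serpinh1*, the collagen chaperone HSP47, was 1.39-fold and 1.48-fold higher. *Adamts2*, the protease known for procollagen I, was lower at 20.6 and 18.1 CPM against 56.0 and 57.3, as was *Creb3l1*.

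Receptors and signals of the growth plate differed member by member. Of 17 receptors, 16 met the minimum and 6 were past the limit, all higher. *Fgfr3*, the receptor that restrains growth of the plate, was 12.9-fold and 14.4-fold higher. *Bmpr1b* was 4.75-fold and 3.43-fold higher, and *Ptch1*, receptor and target of hedgehog signals, 3.16-fold and 3.36-fold. *Pth1r*, the receptor for PTHrP, stood at 57.5 and 49.7 CPM in chondrocytes and 55.7 and 49.8 CPM in other cells. Of 26 ligands and inhibitors, 15 met the minimum, 5 were higher and 3 lower. *Ccn2*, a matricellular growth factor, was 6.04-fold and 6.10-fold higher, *Bmp5* 4.32-fold and 5.04-fold, and *Nog*, a BMP antagonist, 5.28-fold and 3.72-fold. *Igf1* was lower, at 63.8 and 55.8 CPM against 270 and 233, and *Igf2* was 2.07-fold and 1.98-fold higher, on either side of the limit.

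Among 16 genes of hypoxia and glycolysis, 13 met the minimum and 6 were higher. They included *Slc2a1*, the glucose transporter GLUT1 (2.87-fold and 2.84-fold), *Bnip3* (3.81-fold and 3.36-fold) and *Eno1* (2.46-fold and 2.57-fold). *Vegfa* was at 51.1 and 62.3 CPM against 59.8 and 57.6. Of the 3 hedgehog targets that met it 2 were higher, and of 5 round and resting zone genes 1 was higher and 3 lower. None of 13 DNA replication genes and none of the 11 cell cycle control genes that met the minimum were past the limit in either direction.

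Markers of blood, vessel and muscle that met the minimum were lower, and those of tendon were not. All 5 red blood cell markers were past the limit, with *Hbb-bs*, an adult beta globin, at 5870 and 5206 CPM in chondrocytes against 32947 and 35256. All 3 endothelial, all 3 muscle and both immune markers that met the minimum were lower. A gene can meet the minimum through the other cells alone, and its lower level is then largely set by that filter. None of the 3 tendon markers and not the 1 osteoblast marker that met it were past the limit, while of 4 joint markers 1 was higher and 2 lower. Among the 10 genes with the smallest ratios were *S100a8*, *S100a9* and *Stfa1* of neutrophils, *Pf4* of platelets, *Cpa3* and *Cma1* of mast cells, *Rac2* of white blood cells, *Cdh5* of endothelium, and *Asprv1*. *S100a8* held 5 and 6 UMIs over all chondrocytes, 0.706 and 0.619 CPM, against 30.6 and 33.3 CPM. Of 11 perichondrium and mesenchyme genes, 5 were lower and none higher, and *Col1a1*, the type I collagen of bone and mesenchyme, remained at 1736 and 1241 CPM against 2785 and 2387. The osteoblast gene *Bglap* held 1 and 3 UMIs over all chondrocytes and *Bglap2* held 0, where 3 UMIs would be 0.424 and 0.310 CPM. *Cspg4*, listed as a marker of the mural cells around vessels, was 7.66-fold and 8.18-fold higher in chondrocytes, while *Acta2* and *Rgs5* of the same list stood at 19.9 and 8.15 CPM and at 1.69 and 1.96 CPM.

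The 2 sets that the rule put aside showed where the limits on *Col10a1*, *Ihh* and *Gdf5* fall. Kept cells that met the *Col2a1* and selector conditions but held a *Col10a1* or *Ihh* UMI, with or without *Gdf5*, numbered 125 and 152. Their medians were 7118 and 7710 UMIs. Those with a *Gdf5* UMI but no *Col10a1* or *Ihh* UMI numbered 115 and 196, at medians of 4530 and 5043. Against the chondrocytes, 124 of 7003 genes were higher in the *Col10a1* or *Ihh* set (1.77%) and 55 lower (0.785%). Of 12 prehypertrophic and hypertrophic genes, 11 were higher there, 2 of them genes of the rule. *Spp1*, osteopontin, stood at 18.9 and 8.98 CPM in chondrocytes and 1073 and 877 CPM in that set. *Pth1r* stood at 57.5 and 49.7 CPM in chondrocytes and 402 and 273 CPM there. *Mmp13*, the collagenase of the last hypertrophic cells, was at 0.282 and 0.619 CPM in chondrocytes.

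None of the 7 cartilage collagens reached 2-fold in both libraries (*Col1a1* was lower), while *Snorc*, a chondrocyte membrane proteoglycan, stood at 468 and 474 CPM in chondrocytes and at 2117 and 1295 CPM in the *Col10a1* or *Ihh* set. *Hapln1*, *Comp*, *Matn3* and *Pcolce2* were likewise at least 2-fold higher in that set in both libraries. *Ucma* was lower there, at 27.3 and 12.2 CPM against 163 and 95.2, as were *Fmod*, a fibril-binding proteoglycan (39.2 and 12.2 against 151 and 90.5), and *Ecrg4* (92.0 and 107 against 429 and 333). In the *Gdf5* set, 127 of 7084 genes were higher (1.79%) and 22 lower (0.311%). *Sulf1*, which edits heparan sulfate, stood at 127 and 169 CPM in chondrocytes and 547 and 944 CPM there. *Gli3*, *Barx2*, *Hhip* and *Gas1* were also higher there. *Cytl1* was lower, at 188 and 224 CPM against 483 and 595, and so was *Ucma*, at 79.1 and 20.4 CPM against 163 and 95.2.

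**Figure D2:**
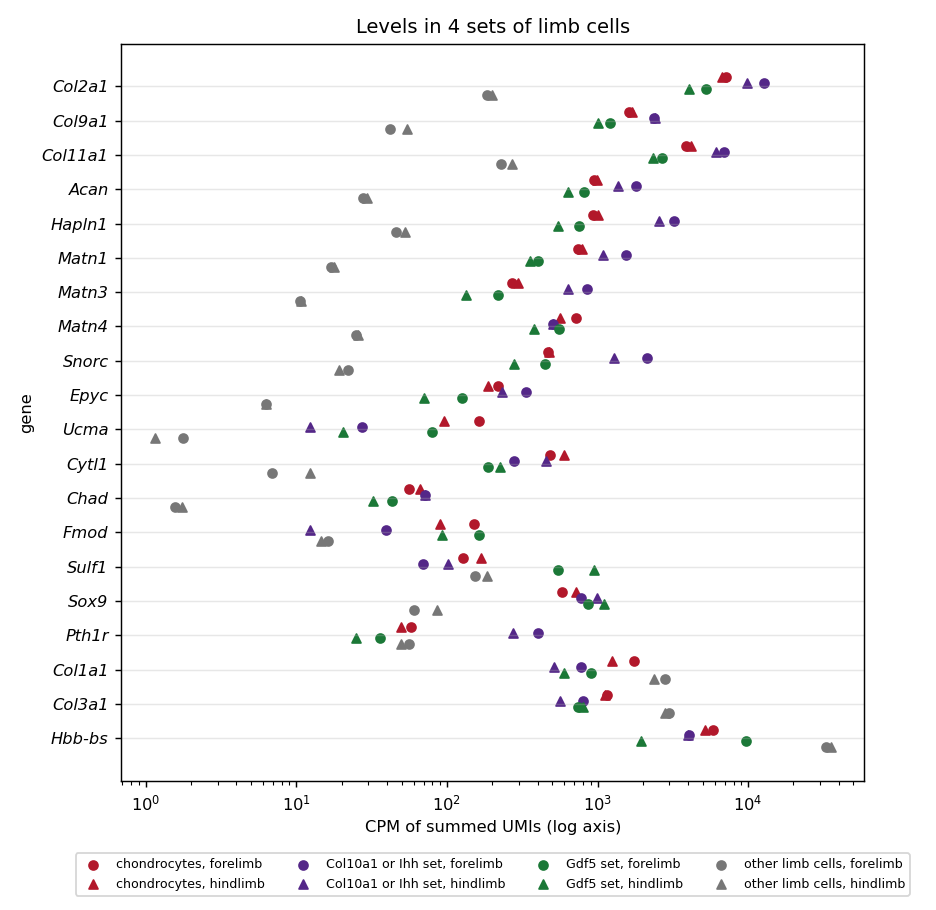
CPM of 20 genes (log axis) in the chondrocytes, the *Col10a1* or *Ihh* set, the *Gdf5* set and the other limb cells, with circles for the forelimb and triangles for the hindlimb. *Ucma* is at 163 and 95.2 CPM in chondrocytes but 27.3 and 12.2 CPM in the *Col10a1* or *Ihh* set and 79.1 and 20.4 CPM in the *Gdf5* set, and *Pth1r* is higher in the *Col10a1* or *Ihh* set.

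Within the chondrocytes, each library was cut into 4 equal bins by the *Col2a1* level of the cell, 332 cells each in the forelimb and 377 or 378 in the hindlimb. The bins use a gene of the rule, so their values are a description. The lowest bin ran from 1003 to 2694 CPM in the forelimb and 1001 to 2590 in the hindlimb, and the highest from 9801 to 47703 and from 9300 to 35438. From the lowest to the highest bin, 221 of 7154 genes were at least 2-fold higher in both libraries (3.09%) and 498 at least 2-fold lower (6.96%). The median over these genes was -0.14 and -0.13 (log2).

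*Epyc* had the steepest climb on the lists. In the forelimb it stood at 6.36, 33.0, 147 and 732 CPM from the lowest to the highest bin, and in the hindlimb at 6.80, 28.6, 135 and 554. *Snorc* went from 22.8 to 1414 CPM and from 22.5 to 1268, and *Matn1* from 62.5 to 2176 and from 48.5 to 1865. By contrast *Matn4*, the matrilin seen in the largest share of these cells, is not among the genes that were 2-fold higher in both libraries. *Sox9* stood at 409 CPM in the lowest and 755 CPM in the highest bin of the forelimb and at 543 and 879 CPM in the hindlimb, less than 2-fold apart. *Cytl1* was highest in bin 3, at 755 CPM in the forelimb and 837 CPM in the hindlimb, and stood at 537 and 697 CPM in bin 4.

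Stretches of 250 bases before each RefSeq start (GRCm38.p6) were found for 20 of 25 cartilage genes looked up. They were searched on both strands for ACAAAG and AACAAT, short letters of the kind that SOX proteins bind. Either was present in 2 of the 20 genes, *Epyc* and *Sox6*, against 26.8% of 27025 genes with an entry. A match is only a description, and its absence says only that these letters are not in this window. The stretches of *Epyc*, *Matn1* and *Ucma* are shown because *Epyc* and *Matn1* were among the genes that differed most along the bins and *Ucma* had the largest ratio against other cells, with matches in capitals (ATTGTT is AACAAT on the other strand).
Epyc, chr10:97643818-97644067, plus strand: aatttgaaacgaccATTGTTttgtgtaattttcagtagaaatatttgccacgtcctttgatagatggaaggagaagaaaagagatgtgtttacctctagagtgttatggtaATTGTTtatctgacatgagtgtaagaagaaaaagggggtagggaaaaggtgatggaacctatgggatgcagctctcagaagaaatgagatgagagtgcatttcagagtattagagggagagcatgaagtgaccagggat
Matn1, chr4:130944135-130944384, plus strand: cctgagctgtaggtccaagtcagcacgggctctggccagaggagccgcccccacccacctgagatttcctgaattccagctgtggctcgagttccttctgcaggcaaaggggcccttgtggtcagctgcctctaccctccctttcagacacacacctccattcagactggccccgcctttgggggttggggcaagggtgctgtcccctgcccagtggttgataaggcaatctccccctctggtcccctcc
Ucma, chr2:4975872-4976121, plus strand: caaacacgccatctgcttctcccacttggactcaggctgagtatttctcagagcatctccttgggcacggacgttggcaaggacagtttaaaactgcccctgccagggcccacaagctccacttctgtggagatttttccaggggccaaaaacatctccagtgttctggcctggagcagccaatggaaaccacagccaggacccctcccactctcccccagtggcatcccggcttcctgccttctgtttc

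*Epyc* has a second RefSeq start, with 4 matches in its stretch. All 7 collagens (*Col2a1* by construction), 7 of 11 proteoglycan genes, 9 of 12 matrilins and other matrix proteins and 9 of 16 sulfate and sugar chain genes were at least 2-fold higher in the top bin in both libraries, and 1 matrix protein, *Matn2*, was lower. *Slc26a2* went from 31.8 to 164 CPM and from 27.2 to 157, and *Chst11* from 86.9 to 552 and from 113 to 622. Of the perichondrium and mesenchyme genes, 9 of 11 were lower, with *Col1a1* going from 2710 to 876 CPM and from 2231 to 521. In the lowest bin *Col1a1* was thus near its level in the other limb cells given above. *Tnmd*, the tenomodulin of tendon, went from 70.5 to 4.8 CPM and from 85.5 to 0.397, and *Sulf1* from 232 to 40.2 and from 351 to 35.3. Of 6 limb identity and position genes that met the minimum, 2 were lower and none higher. *Hoxd13*, a gene of the distal limb, went from 57.2 to 13.8 CPM and from 68.4 to 14.3. *Hoxd11* went from 59.9 to 27.6 CPM and from 50.2 to 10.3.

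All 5 red blood cell markers were at least 2-fold lower in the highest bin in both libraries. So were 2 of 3 tendon markers and the only muscle and endothelial markers that met the minimum, the only mural marker (*Cspg4*) was higher, and no immune or epidermal marker met it. Of the red blood cell markers, *Hbb-y*, an embryonic globin, went from 994 to 62.4 CPM and from 658 to 21.8. The median Scrublet doublet score went from 0.0534 to 0.0306 and from 0.0497 to 0.0276, while the median depth went from 4130 to 4708.5 UMIs and from 4759.5 to 6285. Their part in the bin differences was not tested.

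**Figure D3:**
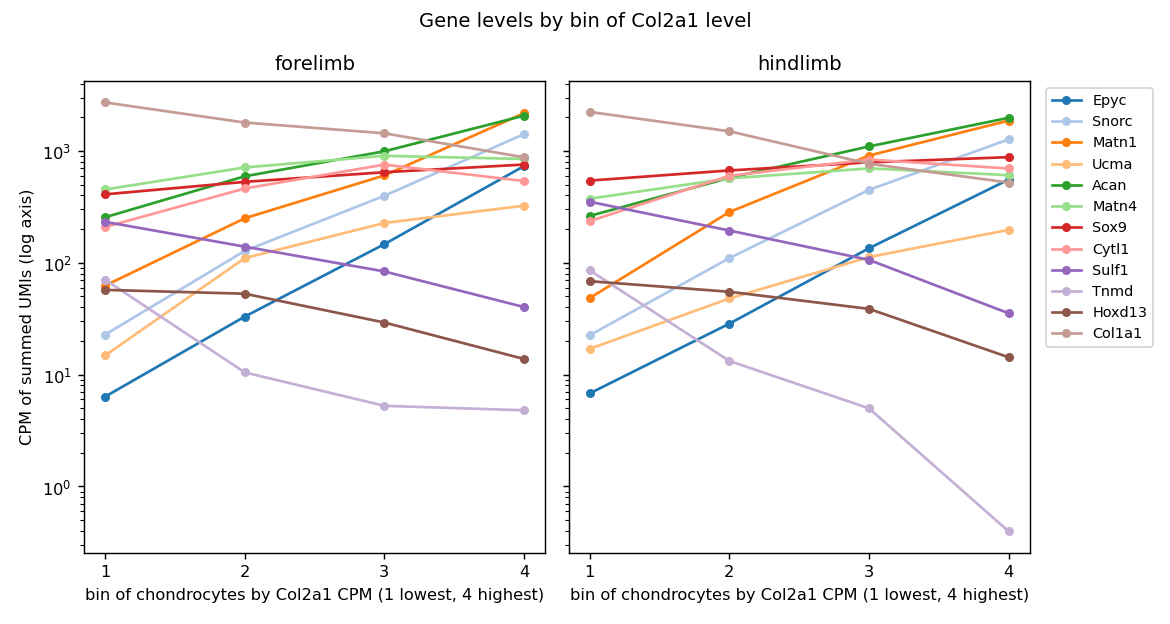
CPM of 12 genes (log axis) in the 4 bins of chondrocytes by *Col2a1* level, forelimb on the left and hindlimb on the right. *Epyc* goes from 6.36 to 732 and from 6.80 to 554 CPM, and *Sulf1* goes from 232 to 40.2 and from 351 to 35.3.

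*Matn1* itself divided the cells in a related way. As *Matn1*, *Matn3* and *Matn4* were used by the rule, this split is a description. Among chondrocytes with at least 2000 UMIs, 558 forelimb and 787 hindlimb cells held a *Matn1* UMI and 577 and 596 did not, at medians of 5425.5 and 6452 against 4306 and 4761.5 UMIs. With *Matn1* left out, 63 of 7002 genes were at least 2-fold higher in both libraries in the cells with it (0.9%) and 39 lower (0.557%). *Epyc* stood at 385 and 286 CPM with *Matn1* and 6.36 and 8.05 CPM without, a ratio of 60.6-fold and 35.5-fold. *Snorc* was 9.96-fold and 15.7-fold higher, *Matn3* 4.07-fold and 5.83-fold, and *Shox2*, a homeobox factor of the proximal limb, 2.97-fold and 3.30-fold. Cells without *Matn1* were higher in *Scx*, a tendon and attachment factor (32.8 and 31.6 against 11.6 and 11.6 CPM), and in *Hhip*, a hedgehog antagonist (114 and 68.6 against 39.6 and 24.4). *Barx2* stood at 21.1 and 17.3 CPM without *Matn1* and 2.33 and 2.26 with it, under the CPM minimum in the hindlimb. *Prg4*, the lubricin of the joint surface, was at 29.1 and 7.45 CPM without *Matn1* and 2.33 and 2.10 with it, also under that minimum. Of the 5 red blood cell markers 1 was lower with *Matn1*, *Hbb-y*, at 697 and 467 CPM without it and 37.8 and 17.6 with it. The part of depth and of red blood cell RNA in this split was not tested.

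Division was not used by the rule, so it could be tested, except on *Col2a1*, *Acan* and the matrilins of the rule, whose values are given without a test. Each cell was thinned to 2000 UMIs, which left out 193 forelimb and 127 hindlimb chondrocytes, and was called dividing with at least 2 UMIs over 10 mitotic genes such as *Mki67* and *Top2a*. Dividing cells made up 17.7% of forelimb chondrocytes (201 of 1135, interval 15.5 to 20.1) and 23.1% of hindlimb chondrocytes (319 of 1383, 20.9 to 25.4). Over the other limb cells the shares were 24.6% and 22.9%. In the hindlimb the share of other cells lay inside the chondrocytes' interval, and in the forelimb it lay above it. By *Col2a1* bin the share went from 19.2% in the lowest to 14.9% in the highest in the forelimb and from 26.3% to 18.9% in the hindlimb. For the *Col10a1* or *Ihh* set it was 11.9% in the forelimb (14 of 118, interval 6.64 to 19.1). The hindlimb share of that set was 22.1% (33 of 149, 15.8 to 29.7).

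All UMIs were then summed per library over the dividing chondrocytes and over those with none of the 10 genes after thinning (739 and 861 cells). The non-dividing sums thus still held 77.9 and 91.7 CPM of the 10 genes, against 3198 and 3858 in the dividing sums. They were compared with edgeR's quasi-likelihood test with the library as a block. Of 12786 genes tested, 1324 were higher in dividing cells (10.4%) and 856 lower (6.69%) at a Benjamini-Hochberg adjusted p under 0.05. DESeq2 on the same sums found 420 higher (3.28%) and 90 lower (0.704%). With 4 sums and 1 residual degree of freedom the spread is poorly known, and 25 of the genes edgeR found went in opposite directions in the 2 libraries. The 2 libraries may also share embryos, so the adjusted p values do not measure a spread between animals. The dividing cells were deeper, at medians of 6738 and 7537 UMIs against 4561 and 5360. A Scrublet doublet score above 0.25 was also more common among them. Without such cells, 185 of 201 forelimb and 289 of 319 hindlimb dividing chondrocytes remained. Of the non-dividing ones, 716 of 739 and 830 of 861 did. Membership turns on single UMIs of the selector and excluded genes, so it depends on depth. The same members were kept where sums were thinned, and the part of this in the differences was not tested.

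The 6 cartilage collagens that the rule did not use were lower in dividing chondrocytes by both tools, by log2 0.30 to 0.39, as a share of all UMIs. *Col2a1* stood at 6176 CPM in dividing against 7620 in non-dividing forelimb chondrocytes and at 5997 against 7125 in the hindlimb, which is no test since the rule used it. *Col9a2* was at 809 against 1104 CPM and 906 against 1114, a log2 ratio of -0.39 ± 0.09 (SE, edgeR adjusted p = 0.000103). Here and below the SE was worked back from the test, as the absolute log2 ratio divided by the square root of the edgeR F statistic. Each collagen was lower in both libraries. Without the library block none of the 6 passed the threshold, and on UMIs thinned to 2000 per cell 4 did.

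Of 9 other matrix proteins that the rule did not use, 6 were lower by edgeR and 3 by DESeq2, with none higher. The 3 were *Mia* at a log2 ratio of -0.53 ± 0.09, *Ecrg4* at -0.49 ± 0.08 and *Comp* at -0.44 ± 0.08. Among 10 proteoglycan genes without *Acan*, 4 were lower by edgeR and 2 by DESeq2, and *Prelp* was higher by edgeR alone. *Fmod* fell by both tools, from 179 to 98.5 CPM in the forelimb and from 100 to 67.7 in the hindlimb. *Ucma* was lower by edgeR only (DESeq2 adjusted p = 0.858), with 83.3 against 216 CPM in the forelimb and 82.2 against 101 in the hindlimb. *Hapln1* did not pass the edgeR threshold, at log2 -0.22 ± 0.09. *Acan* and *Matn4*, genes of the rule, had log2 ratios of -0.14 and -0.49.

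Of 17 transcription factors, 6 were lower by edgeR and 1, *Runx3*, was higher (log2 0.43 ± 0.15, not called by DESeq2). *Sox5* stood at 796 against 1153 CPM and 984 against 1316 (log2 -0.49 ± 0.09, edgeR adjusted p = 2.71e-07), *Sox9* at 507 against 627 and 599 against 818 (log2 -0.39 ± 0.09) and *Sox6* at 696 against 943 and 1133 against 1287 (log2 -0.32 ± 0.09). With *Trps1* (log2 -0.41 ± 0.09) these were the 4 that DESeq2 also called lower. Without the library block none of the 17 factors, none of the 10 proteoglycan genes and 1 of the 9 other matrix proteins passed, and with thinned sums 4, 4 and 5 did. In the sulfate and sugar chain list 7 of 22 were lower by edgeR and 2 by DESeq2, *Papss2* and *Chst11*, both at log2 -0.43. Of 24 procollagen folding genes 9 were lower by edgeR and none by DESeq2, with none higher. On thinned sums 3 of the sulfate and sugar chain genes and 1 of the procollagen folding genes passed, and none of either without the library block. Of 23 ligands and inhibitors 7 were lower by edgeR, and of 17 receptors 2 were lower and 2 higher, while both tools called only *Igf2* (log2 -0.32 ± 0.08) and *Bmpr1b* (log2 -0.37 ± 0.08) among them, both lower. Of the ligands and inhibitors 1 passed on thinned sums and 1 without the block, and of the receptors 2 and 1 did. Of 8 prehypertrophic and hypertrophic genes *Spp1* was lower by both tools, at 6.19 against 27.5 and 2.84 against 9.88 CPM, and *Pth1r* was higher by edgeR only, and neither passed on thinned sums or without the block.

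Genes of the cell cycle outside the 10 used for the call follow from the call and are given as a check. Of 13 DNA replication genes, 10 were higher by edgeR and 7 by DESeq2, with *Rrm2* at 89.5 against 9.33 and 108 against 11.0 CPM. The cyclin D2 gene *Ccnd2* was lower by both tools, at 236 against 375 and 296 against 496 CPM (log2 -0.72 ± 0.08, edgeR adjusted p = 3.22e-16). The other D-type cyclin called, *Ccnd1*, was lower by edgeR only, and *Ccne1* and *Rbl1* were higher by both. Among the 10 most reduced genes of at least 20 CPM, both tools called *Kcnip4*, *Kdm7a*, *Tafa2*, *Vwc2* and *Ogn*. *Kcnip4*, which encodes a potassium channel interacting protein, was at 56.3 against 112 and 42.9 against 117 CPM (log2 -1.26 ± 0.12). *Ogn*, a leucine-rich proteoglycan, was at 83.3 against 164 and 74.1 against 135. *Hbb-bt* was also among the 10 although its libraries went opposite ways, 283 against 1865 CPM in the forelimb and 1951 against 1396 in the hindlimb.

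By edgeR 7 of 11 perichondrium and mesenchyme genes were higher in dividing chondrocytes, among them *Dcn* (log2 0.39 ± 0.08) and *Col3a1* (log2 0.34 ± 0.09), and DESeq2 called none. Of this list 2 passed on thinned sums and none without the block. The other-tissue markers given here were mixed, with none called by DESeq2. By edgeR 2 of 4 epidermal genes (*Krt5* and *Krt14*), 1 of 3 endothelial (*Pecam1*), 1 of 2 mural (*Acta2*) and 2 of 4 muscle genes were higher and none lower, in both libraries. No epidermal, endothelial, mural or muscle gene passed on thinned sums, and without the block only 2 epidermal genes did. The immune gene *Lyz2* and 4 of 5 red blood cell genes were called lower with their libraries in opposite directions, and *Hbb-y* was higher in both. All 5 red blood cell genes passed on thinned sums, and 1 did without the block. *Krt14* was at 10.1 against 5.30 and 14.5 against 4.66 CPM, and *Hbb-y* at 881 against 87.3 and 276 against 161. The part of such RNA in the dividing comparison was not tested. With cells of Scrublet score above 0.25 left out, edgeR called 1241 genes higher and 759 lower.

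**Figure D4:**
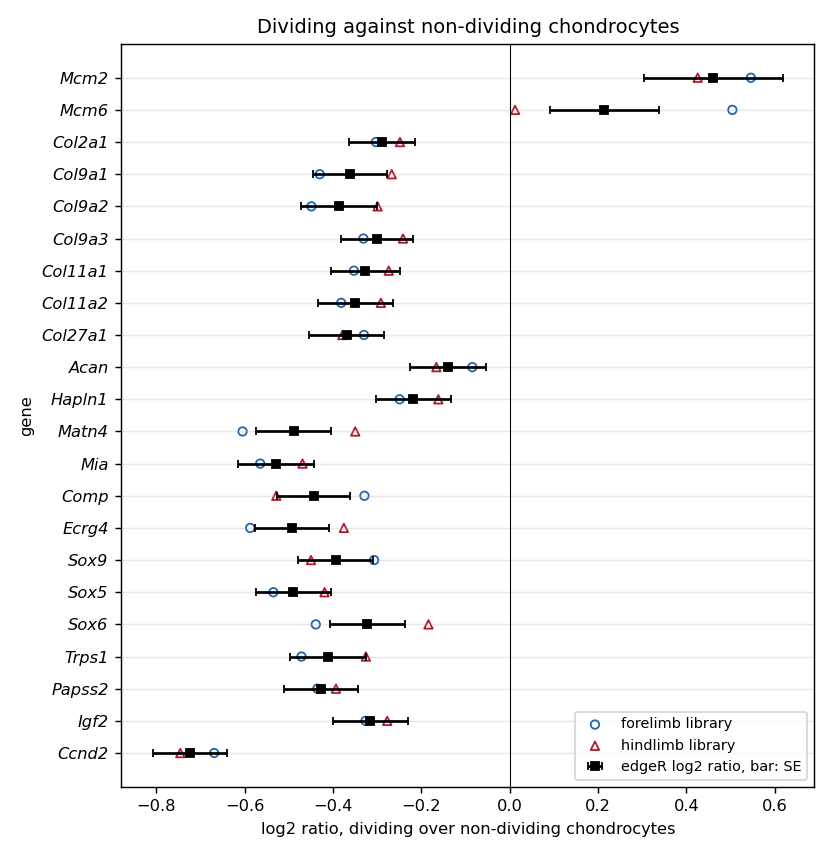
log2 ratio of dividing over non-dividing chondrocytes for 22 genes. Squares are the edgeR estimate over both libraries, and bars are an SE worked back from its F statistic. Open circles and triangles are the forelimb and hindlimb libraries. *Col2a1*, *Acan* and *Matn4* were used by the rule, so their estimates and bars are a description and no test. All 7 collagens, *Matn4*, *Mia*, *Comp* and *Ecrg4*, and *Sox9*, *Sox5* and *Sox6* lie left of 0 in both libraries.

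Forelimb and hindlimb chondrocytes differed by at least 2-fold in 3 of 10 limb identity and position genes that met the CPM minimum. With 1 library per limb there was no test, and values carry exact Poisson intervals for counting error. Of 7184 genes with at least 20 CPM in the higher library, 22 were at least 2-fold higher in the forelimb (0.306%) and 11 in the hindlimb (0.153%). None of the 7 collagens, 11 proteoglycan genes, 12 matrix proteins, 15 transcription factors and 16 sulfate and sugar chain genes that met the minimum were among them. *Tbx5*, the T-box factor of the forelimb, stood at 75 CPM in forelimb and 3.1 CPM in hindlimb chondrocytes. *Pitx1* and *Tbx4*, factors of the hindlimb, were at 1.55 and 8.47 CPM in forelimb against 90.2 and 55.0 CPM in hindlimb chondrocytes. *Tbx5* and *Pitx1* also separated the other cells of the libraries, *Tbx5* at 51.2 against 2.88 CPM and *Pitx1* at 0.954 against 62.7 CPM.

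*Hoxc10* was at 0 UMIs in forelimb chondrocytes, where 3 UMIs would be 0.424 CPM, and at 19.7 CPM in hindlimb chondrocytes. *Hoxa9*, *Hoxa10*, *Hoxa13*, *Hoxd11* and *Hoxd13* differed by less than 2-fold between the limbs. *Hmga2*, a chromatin protein of growing embryonic cells, was higher in the hindlimb at 355 against 150 CPM, and in the other cells too at 124 against 54.7. *Ucma* leaned to the forelimb, 163 against 95.2 CPM, short of 2-fold. Others past the limit were *Msmp* (22 against 5.47 CPM) and *Clec3b* (23.0 against 6.71) in the forelimb and *Vwc2* (31.1 against 70.5) and *Cacna1d* (42.4 against 87.0) in the hindlimb. *Lyz2* of macrophages and *Tpsb2* of mast cells were also higher in forelimb chondrocytes, at 31.5 against 4.64 and 30.5 against 11.0 CPM. So were 2 of the 3 muscle markers that met the minimum, *Actc1* at 53.3 against 23.1 CPM and *Myog* at 20.2 against 9.60, and the part of such RNA was not tested.

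**Figure D5:**
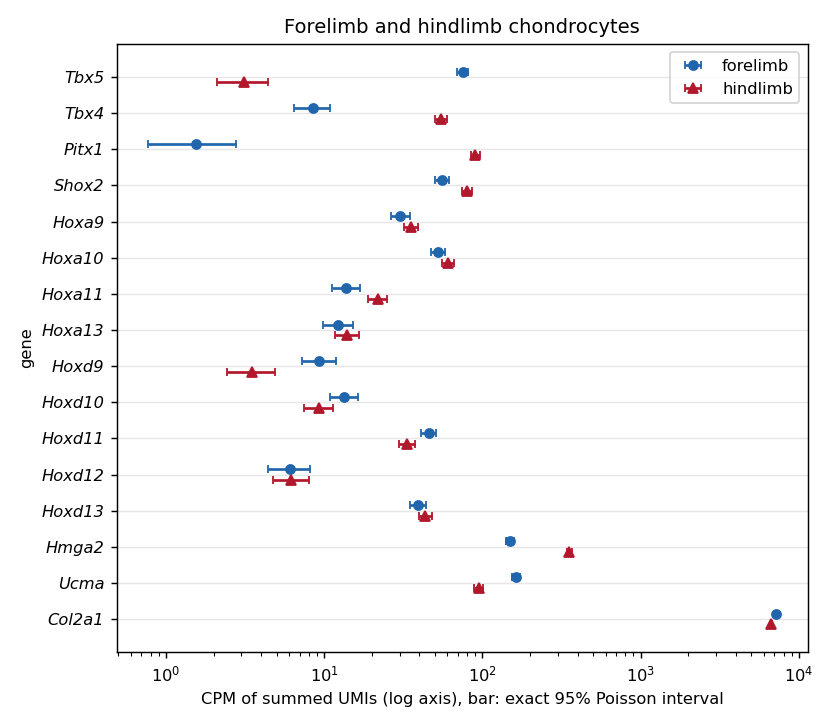
CPM of 16 genes (log axis) in forelimb and hindlimb chondrocytes with exact 95% Poisson intervals, which cover counting error only. *Tbx5*, *Tbx4* and *Pitx1* lie far apart, while *Col2a1* is at 7126 and 6701 CPM.

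In the penis libraries, the only other tissue of the series, few cells passed the rule. With penis cells kept at 500 to 6000 genes and at most 5% mitochondrial UMIs, limits set for this work after those the methods state per cell in reads, 3 of 6806, 4 of 7107 and 5 of 5720 kept cells passed the same rule, at most 0.0874% of a library. Another 12, 13 and 9 kept cells met the *Col2a1* and selector conditions but held a *Col10a1* or *Ihh* UMI. The comparison with the limb had been set to run only with at least 20 cells passing the rule in each library and was not run.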

How the data were processed

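Each sample was a droplet library made with a 10X 3' kit, and the deposited UMI counts per gene and barcode were made by the authors with Cell Ranger 7.0.0 (mm10) and are not normalized. The lowest deposited barcode held 500 UMIs. Groups came from the tissue labels. The members, lists and tests were chosen with earlier results of these data known.

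Cells were selected, summed per library and converted to CPM in Python 3.11.15 (pandas 2.3.3). In ratios of summed UMIs, a group with fewer than 3 counts in a library was given a floor of 3. Named genes were list members, plus the 15 highest and 10 lowest ratios against other cells, 10 per direction between limbs, and 10 per direction for division. Division was tested with edgeR 4.0.16 (R 4.3.3, library as a block), with DESeq2 1.42.0 as the alternative. On simulated counts for that comparison (12786 genes), edgeR recovered 83.8% of genes changed by log2 1 and 96.8% at log2 2 with 11 false calls, and DESeq2 34.3% and 76.8% with 0. The simulation gave all genes the same dispersion and let no change differ between the libraries. It held no change smaller than log2 1, so its rates do not carry over to the smaller differences reported above. Doublets were scored with Scrublet (scanpy 1.11.5) and kept. Its automatic limit did not work in the forelimb, so a score limit of 0.25 was set after seeing the data and used as an alternative. Alternatives covered the limits of the rule, the fold and CPM limits, depth and the fit. Some of the genes named by these choices are not reported here.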

Additional observations from a re-analysis of the deposited data

Results flagged for a closer look

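Cells passing the chondrocyte rule were found in the penis libraries, outside every comparison, and numbered 3, 4 and 5 in penis 1, 2 and 3.

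The dividing share of chondrocytes minus that of other limb cells was -6.85 percentage points for the forelimb library and 0.15 for the hindlimb library, the second well within its counting error (the chondrocyte share of 23.1% has an interval of 20.9 to 25.4). The difference between the limbs was not tested, since each has 1 library.

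The globin gene *Hbb-bt* had a log2 ratio of dividing over non-dividing chondrocytes of -2.72 in the forelimb and 0.48 in the hindlimb. This difference was not tested either.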

How the results depend on the processing

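The share of chondrocytes, in the forelimb and hindlimb, was 6.02% and 7.40% with *Col2a1* at 500 CPM, 4.23% and 5.20% at 2000 CPM, 4.63% and 5.68% with at least 2 selector UMIs, 5.99% and 7.34% among cells with log10 genes per log10 UMI of at least 0.8, 5.43% and 6.86% with cells thinned to 2000 UMIs, and 6.06% and 7.76% with *Col10a1*, *Ihh* and *Gdf5* not used. Against other limb cells, a 4-fold limit left 113 genes higher and 91 lower, and a minimum of 5 CPM gave 978 lower. With 1 library alone the counts were 388 to 399 higher and 491 to 548 lower. Between the limbs, 4-fold left 3 higher in the forelimb and 2 in the hindlimb, and 5 CPM gave 113 and 57.

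Among dividing chondrocytes, the counts higher and lower were 420 and 90 with DESeq2, 609 and 68 with no library block, and 648 and 285 with sums thinned to 2000 UMIs per cell. Of 40 named genes, 22 lost the call with no library block and 8 with DESeq2, as did 8 of 39 with thinned sums. The direction of *Hbb-bt* rested on the forelimb library, at log2 -2.72 without the hindlimb and 0.48 without the forelimb. The causes were not tested. No paired analysis was possible between tissues because each limb has 1 library. The penis comparison and its 5 alternatives were not run for want of cells. Depth limits the genes near 20 CPM, and 2 alternatives were chosen after seeing the data. Members with a *Col2a1* limit of 2000 CPM moved 19 of 25 named values with no change of sign, and the score limit of 0.25 moved 8 of 65 and cost 1 call.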
